A study of Mus musculus with 8 samples.

Results

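At 1756 places in the genome of 3134 cells, a mouse mammary epithelial line, both Brg1 libraries ranked above every other library in height. Chromatin immunoprecipitation sequencing had been done on untreated cells with a monoclonal antibody to Brg1, with an antibody to CHD4 and with an antibody to Snf2h, with 2 libraries for each. Each of the 6 libraries has its own deposited list of hotspots, intervals enriched for sequence tags, on the mouse mm9 assembly. The labels do not say whether replicates 1 and 2 came from separate cultures, so spread between them may be technical, and the DNA inputs were not analysed here. Hotspots of all lists that overlapped by at least 1 bp were merged into 532751 regions. Of these, 10442 held a hotspot of every list and are called common regions. In each library the tallest hotspot of a common region, by maximum tag density, was given its percentile rank among the common regions. The 1756 Brg1-highest regions are those where the lower Brg1 percentile was strictly above all 4 percentiles of the CHD4 and Snf2h libraries. They are 16.8% of the common regions (95% Wilson interval 16.1% to 17.5%, counting error only). The regions were thus chosen by maximum density in all 6 libraries, so the percentiles below describe the choice and carry no test. With 1 library left out, fewer lists had to hold a hotspot or rank lower, and heights were ranked among a different set of common regions. The rule then gave 3199 regions without Brg1 replicate 1, which held 99.8% of the 1756. Without Snf2h replicate 1 it gave 3631, which held 74.2%.

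Brg1, CHD4 and Snf2h are ATPases that move or evict nucleosomes. Brg1 drives SWI/SNF complexes, which open chromatin at enhancers and promoters and are often recruited by sequence-specific factors. CHD4 is the motor of NuRD, a complex that also carries histone deacetylases, and Snf2h is the motor of ISWI complexes, known for spacing nucleosomes evenly. Genes and sequence at these coordinates were not analysed here.

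Heights are the authors' own densities, and no source used here gives their scaling, so libraries were compared by rank. The lists differ in length, from 32310 hotspots in Snf2h replicate 1 to 293135 in CHD4 replicate 2, and in lowest Z score, from 2.00 to 9.49. How many tags each library held is unknown. Densities move in steps of 0.158 in Brg1 replicate 2 to 0.693 in Snf2h replicate 1. The common regions take 452 and 810 distinct heights in the Brg1 libraries, 240 and 215 in those of CHD4, and 140 and 569 in those of Snf2h, so Snf2h replicate 1 ranks them most coarsely.

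At the Brg1-highest regions Brg1 was tall, CHD4 was near its usual height and Snf2h was low. The median percentile was 80.1 in Brg1 replicate 1 and 79.7 in Brg1 replicate 2, against 54.0 and 48.6 for CHD4 replicates 1 and 2 and 31.8 and 26.5 for Snf2h. In the authors' units the median maximum density was 88.0 and 48.2 in the Brg1 libraries, which is 1.85 and 2.21 times the median of all common regions in the same library. For CHD4 the medians were 21.1 and 13.3, or 1.05 and 0.982 times that of all common regions. For Snf2h they were 16.6 and 18.6, or 0.828 and 0.665 times. Against all common regions the median height was thus higher in both Brg1 libraries and lower in both Snf2h libraries. The values of all 6 libraries chose the regions, so both directions describe the choice.

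**Figure D1:**
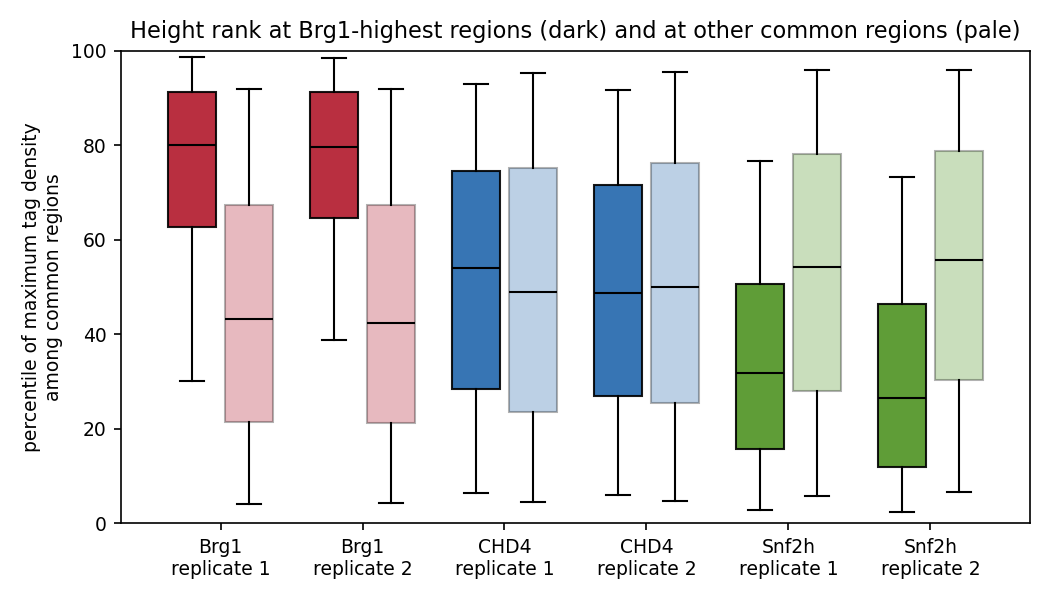
Percentile of maximum tag density among the 10442 common regions (y axis) in each of the 6 libraries (x axis), at the 1756 Brg1-highest regions (dark boxes) and at the 8686 other common regions (pale boxes). Boxes span the quartiles, the line is the median and whiskers run from the 5th to the 95th percentile of the regions. The values of all 6 libraries chose the regions, so differences between dark and pale boxes describe the choice. The Brg1 medians at Brg1-highest regions are 80.1 and 79.7, and the CHD4 boxes of both sets largely overlap. The Snf2h medians of 31.8 and 26.5 lie below the 54.1 and 55.8 of the other common regions.

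The spread within the set was wide. Percentiles ran from 1.13 to the top of the ranking in Brg1 replicate 1 and from 3.54 to the top in Brg1 replicate 2. Both Brg1 libraries were above the 90th percentile at 376 regions (21.4%) and below the 50th at 129 (7.35%). The rule therefore takes in places where Brg1 itself was low, provided the other libraries were lower still. Among the decile of common regions with the highest mean Brg1 percentile, 49.9% were Brg1-highest, against 8.62% in decile 5 and 0.478% in the lowest decile. Height in Brg1 alone did not settle membership: of the 690 common regions above the 90th percentile in both Brg1 libraries, 54.5% were Brg1-highest, and at the others a CHD4 or Snf2h library ranked as high or higher.

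CHD4 and Snf2h did not stand equally far below Brg1. The highest of the 4 other libraries was a CHD4 library at 1394 of the 1756 regions (79.4%), and an Snf2h library at 362. The same share over all common regions was not computed, so this count alone does not set the regions apart. Both CHD4 libraries ranked above both Snf2h libraries at 884 Brg1-highest regions (50.3%), against 27.9% of all common regions. The opposite order, both Snf2h libraries above both CHD4 libraries, was found at 68 (3.87%), against 27.6% of all common regions. At the remaining 804 regions neither order held in every library. These percentiles are bounded by the rule, so the order is a description. Both Snf2h libraries were under the 10th percentile at 175 regions (9.97%), against 4.59% of all common regions. For CHD4 the share was 3.70%, against 3.80% of all common regions, so regions in the bottom decile for CHD4 were about as frequent here as elsewhere.

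Ranked against the whole list and not the common regions alone, the tallest hotspot of a Brg1-highest region lay at a median percentile of 96.3 and 98.4 in the Brg1 lists. The medians over all common regions in those lists were 88.1 and 94.3. In the Snf2h lists the medians were 62.0 and 73.8 at Brg1-highest regions and 74.997 and 86.8 at all common regions. In the CHD4 lists they were 76.8 and 95.9, against 74.2 and 96.1 at all common regions. Snf2h hotspots at Brg1-highest regions were thus low for common regions, but above the middle of their own lists.

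The 8 regions with the largest margin, the gap between the lower Brg1 percentile and the highest of the other 4, lay on chromosomes 3, 5, 7, 8, 9 and 10. The first was on chromosome 10 at 15807944 to 15808578, where the maximum density reached 64.3 and 54.1 with the Brg1 antibody, 8.67 and 6.42 with that to CHD4, and 9.70 and 4.02 with that to Snf2h. Brg1 ranked it at percentiles 66.5 and 83.7, CHD4 at 3.62 and 9.03 and Snf2h at 2.79 and 0.144, a margin of 57.4 points. It was a compact site of 635 bp with 1 hotspot per list. The 6 hotspots were stacked on the same bases: the Brg1 hotspots were 405 and 635 bp wide, those of CHD4 543 and 445 bp, and those of Snf2h 378 and 407 bp. Their Z scores, the authors' measure of enrichment, were 93.2 and 115 in the lists of Brg1, against 14.9 and 9.19 in those of CHD4 and 13.1 and 9.79 in those of Snf2h.

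The next pair lay on chromosome 5. At 5180403 to 5181754 Brg1 reached densities of 86.9 and 54.9, while CHD4 reached 13.5 and 8.90 and Snf2h 15.2 and 9.93. At 87059193 to 87060279 Brg1 reached 93.2 and 56.3, while CHD4 reached 11.8 and 9.88 and Snf2h 7.62 and 7.80. Both Brg1 libraries ranked both regions between percentiles 79.6 and 85.0, and no other library ranked either above 26.9. The fifth, on chromosome 10 at 51694648 to 51695884, was the tallest of the 8 in Brg1, with densities of 133 and 78.4 and percentiles of 92.0 and 93.5. CHD4 replicate 1 ranked it at 37.9 and CHD4 replicate 2 at 9.03, while the Snf2h libraries ranked it at 1.84 and 2.62. The other 4 were on chromosome 7 at 38861983 to 38863588, chromosome 3 at 123778815 to 123779728, chromosome 9 at 98568365 to 98570478 and chromosome 8 at 89380003 to 89381024, with margins of 51.5 to 54.7 points. In all 8 the nearest other common region was at least 45699 bp away, and at the sixth, on chromosome 3, it was 566155 bp away. The median distance over all common regions was 36821 bp, a distance that all 8 exceeded.

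**Figure D2:**
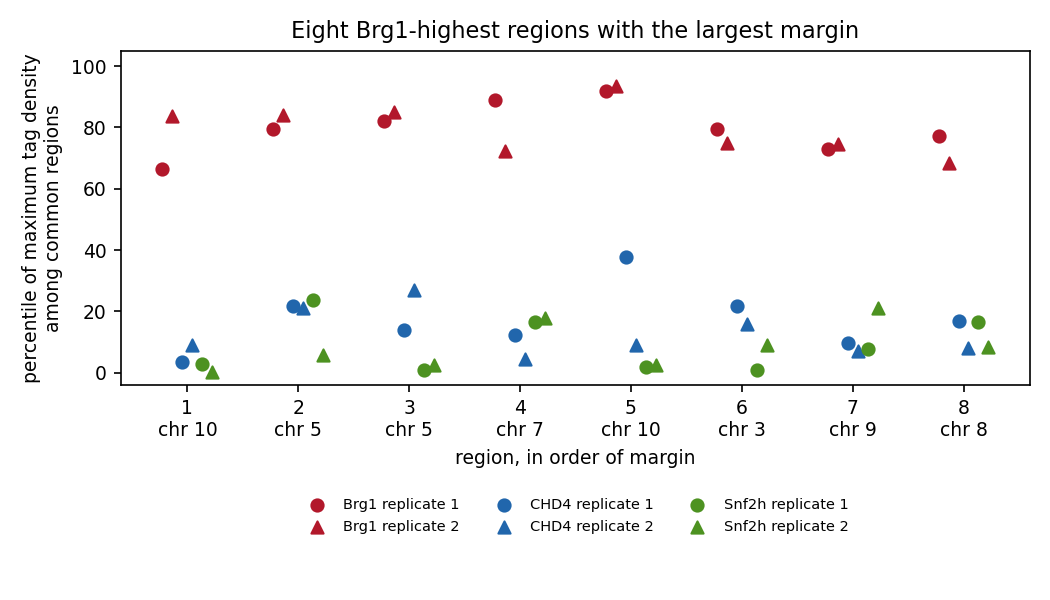
Percentile of maximum tag density among common regions (y axis) in each library (circles, replicate 1; triangles, replicate 2) at the 8 Brg1-highest regions of largest margin, in order of margin (x axis, with the chromosome). Both Brg1 points lie between 66.5 and 93.5 in every region and every CHD4 and Snf2h point at or below 37.9; the regions were chosen for this gap.

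The 5 Brg1-highest regions with the highest mean of the 2 Brg1 percentiles looked different, in that CHD4 was nearly as high in rank. The first was on chromosome 6 at 143587373 to 143590229, where Brg1 reached densities of 465 and 258, CHD4 104 and 51.1, and Snf2h 39.5 and 80.4. The hotspot of 258 was the tallest of the whole Brg1 replicate 2 list, while in Brg1 replicate 1 the tallest Brg1-highest region, at 506, was another and not among these 5. The CHD4 libraries ranked the chromosome 6 region at 99.89 and 99.60 and the Snf2h libraries at 91.9 and 94.9, so its margin was 0.105 points. Next came chromosome 7 at 108598033 to 108600379, where Brg1 reached 415 and 214, CHD4 52.7 and 35.3, and Snf2h 36.0 and 40.4. The other 3 were on chromosome 17 at 44846265 to 44847823, chromosome 1 at 193115953 to 193117175 and chromosome 6 at 145708618 to 145711741. Across these 5 the lowest CHD4 percentile was 94.6, whereas Snf2h percentiles ran from 43.4 to 94.9. Of the 100 tallest hotspots of each Brg1 list, 42 in replicate 1 and 40 in replicate 2 lay in Brg1-highest regions, and 66 and 72 lay in common regions of any kind. The rule used Brg1 height, so the counts in Brg1-highest regions describe the choice. No such share is given for all 115361 and 260036 hotspots of the Brg1 lists. The tallest hotspot of Brg1 replicate 1, at 647, was in none of the common regions.

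The widest Brg1-highest region was on chromosome 17 at 33915992 to 33922401. It spanned 6410 bp with 21 hotspots, 6 and 5 of them in the Brg1 lists, 3 and 2 in the CHD4 lists, and 1 and 4 in the Snf2h lists. Its Brg1 densities were 263 and 150, against 67.3 and 41.0 for CHD4 and 18.0 and 39.96 for Snf2h. No other hotspot of any list had its midpoint within 10 kb of the region's edges.

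Most margins were small relative to the difference between the Brg1 libraries. The median margin was 8.66 points, with quartiles of 3.52 and 16.6. Over all common regions the 2 Brg1 percentiles of a region differed by a median of 11.4 points and by 33.1 points at the 90th percentile. The margin exceeded the first of these at 669 Brg1-highest regions (38.1%) and the second at 91 (5.18%). Within the set the Brg1 libraries differed by a median of 5.74 points, a figure made smaller by the requirement that both be high. Just inside the rule, at a margin of 0.00958 points, were chromosome 7 at 119345061 to 119347098, with Brg1 percentiles of 97.108 and 97.548 against 97.098 in CHD4 replicate 2, and chromosome 1 at 82968549 to 82969619, with 39.269 and 33.672 against 33.662 in Snf2h replicate 2. Just outside, at -0.00479 and -0.00958, were chromosome 3 at 58114130 to 58115661, with 95.470 and 98.880 against 95.475 in CHD4 replicate 2, and chromosome 2 at 132424447 to 132425569, with 99.636 and 99.229 against 99.239 in CHD4 replicate 2. The edge of the set is thus a cut through a continuum.

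Common regions were next chosen by a top Brg1 rank in the lists of 1 replicate number and looked up in the lists of the other. This rule is wider than that of the Brg1-highest regions, as it compares each Brg1 library with same-numbered lists only. All 1756 Brg1-highest regions are by construction among the 2214 where Brg1 ranked highest under both replicate numbers. The shares below are therefore no test of those 1756. Every common region also needed a hotspot in the lists used for the look-up. Brg1 ranked highest of the 3 replicate 1 lists at 3778 common regions. In the replicate 2 lists it ranked highest at 58.6% of these (95% Wilson interval 57.02% to 60.2%), against 23.0% of the regions not chosen and 35.9% of all common regions. Chosen in replicate 2, 3745 regions held in replicate 1 at 59.1% (57.5% to 60.7%), against 23.4% of the regions not chosen and 36.2% of all. At the regions chosen in replicate 1 the median percentile in Brg1 replicate 2 was 67.3, and it was 50.01 and 37.9 in the other replicate 2 lists. The held share rose with the margin in the lists used for choosing, to 67.9% of the 312 regions with a margin above 40 points, against 54.4% of the 859 with a margin of at most 5. In the other direction these shares were 69.2% of 506 and 52.7% of 719. So even at large margins, 30.8% to 32.1% of the chosen regions did not hold.

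The same reading gave 70.7% and 62.6% for Snf2h, against 42.3% and 37.5% of all common regions. For CHD4 it gave 34.5% and 41.6%, against 21.8% and 26.3%. As a multiple of the share over all common regions the held share was 1.63 for Brg1, 1.67 for Snf2h and 1.58 for CHD4. These multiples are close, but they rest on unequal shares and do not show that the 3 remodelers held equally well. Among regions not chosen the share was 25.4% and 19.1% for Snf2h and 17.2% and 22.0% for CHD4, against 23.0% and 23.4% for Brg1. The gap between chosen and not chosen regions was thus widest for Snf2h and narrowest for CHD4. For Brg1, leaving out a CHD4 or Snf2h library removed a competing list and also changed which regions were common. The share of regions chosen in replicate 1 that held in replicate 2 was then 53.7% against 34.5% of all common regions without CHD4 replicate 1, and 70.5% against 47.7% without CHD4 replicate 2. It was 46.8% against 38.0% with Snf2h replicate 1 left out, when 19578 regions were common, and 69.3% against 49.9% with Snf2h replicate 2 left out. The full rule gave 2260 Snf2h-highest regions (21.6%) and 615 CHD4-highest regions (5.89%). Of the 15 pairs of libraries, the Brg1 pair was second after the Snf2h pair, and the next was Brg1 replicate 2 with CHD4 replicate 1 at 730 (6.99%).

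**Figure D3:**
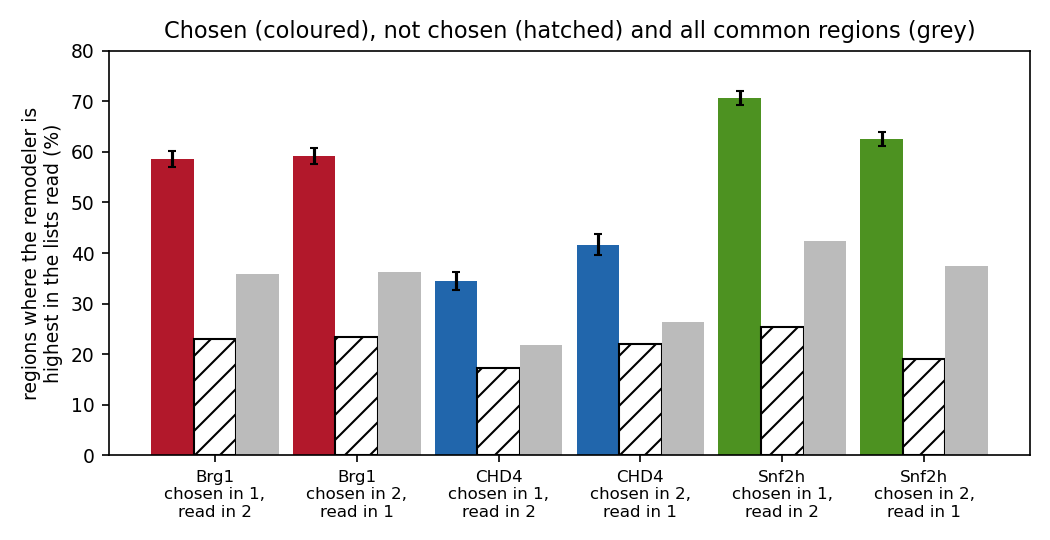
Share of regions (y axis, percent) at which a remodeler ranked highest of the 3 lists of a replicate number, among regions chosen in the lists of the other number (coloured bars, with 95% Wilson intervals), regions not chosen (hatched) and all common regions (grey), for Brg1, CHD4 and Snf2h in both directions (x axis). The Brg1 bars of 58.6% and 59.1% stand above the hatched bars of 23.0% and 23.4% and the grey bars of 35.9% and 36.2%.

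In outline the Brg1-highest regions resembled other common regions. Their median width was 1462 bp (quartiles 1092 and 1928 bp), against 1500 bp (1057 and 2060 bp) over all common regions, and 51.03% against 48.3% had a single hotspot of every list. The tallest hotspot of Snf2h was narrower here, with median widths of 438 and 654 bp against 488 and 726 bp over all common regions. That of Brg1 replicate 1 was wider, at 703 against 647 bp, as was that of CHD4 replicate 1, at 685 against 625 bp, while those of Brg1 replicate 2 (1174 against 1167 bp) and CHD4 replicate 2 (1086 against 1093 bp) were nearly equal. These widths come from the same hotspots whose heights chose the regions, and were not tested.

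The hotspots of the remodelers lay close together. Between the midpoints of the tallest hotspots of Brg1 replicate 1 and CHD4 replicate 1 the median distance was 73.8 bp at Brg1-highest regions, against 106 bp at all common regions. In 86.4% of Brg1-highest regions these midpoints were within 250 bp of each other, against 73.3% of common regions. The corresponding medians were 96.8 and 107 bp for Brg1 replicate 2 with CHD4 replicate 2, and 98.3 and 117 bp for the Brg1 libraries with each other. Between the Snf2h libraries the order was the other way, with 104 bp at Brg1-highest regions and 92.5 bp at all common regions. From Brg1 to Snf2h the distance was shorter at Brg1-highest regions in 3 of the 4 library pairs. It was 118 against 131 bp in the replicate 1 lists, 92.5 against 95 bp for Brg1 replicate 1 with Snf2h replicate 2, and 162 against 168 bp for Brg1 replicate 2 with Snf2h replicate 1. In the replicate 2 lists it was longer, at 133 against 127 bp. Short distances from Brg1 to Snf2h were not particular to Brg1-highest regions. At Snf2h-highest regions the medians of these 4 pairs, in the same order, were lower still, at 105.75, 88.5, 145.5 and 104.5 bp. At CHD4-highest regions they were 129.5, 95, 156.5 and 116 bp. Between the Brg1 libraries the median was 110 bp at CHD4-highest regions and 114 bp at Snf2h-highest regions. These distances share the hotspots that were ranked and were not tested.

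Brg1-highest regions were scattered among the other common regions. The nearest common region was itself Brg1-highest for 320 of the 1756 (18.2%), against 16.8% for the neighbours of all common regions. Snf2h-highest regions had an Snf2h-highest nearest neighbour at 28.01%, against 21.1%. For CHD4-highest regions it was 9.92%, against 6.44%. The median distance to the nearest common region was 40182 bp for Brg1-highest regions, 21921 bp for CHD4-highest regions and 38544 bp for Snf2h-highest regions. Brg1-highest regions made up 18.0% of common regions with a neighbour within 2 kb and 18.4% of those with none within 50 kb. They made up 17.2% at 2 to 10 kb and 14.5% at 10 to 50 kb. CHD4-highest regions by contrast fell steadily over these distances, with 10.7%, 7.46%, 6.91% and 3.48%. The longest run of consecutive common regions that were all Brg1-highest held 5, over 1017 kb of chromosome 8 at 95362514 to 96379778.

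All 20 chromosomes found in the lists held Brg1-highest regions. Their share of the common regions was highest on chromosome 14, at 77 of 345 (22.3%, 95% Wilson interval 18.2% to 27.0%), and lowest on chromosome 4, at 86 of 638 (13.5%, 11.05% to 16.3%). The interval excluded the overall share of 16.8% on 5 chromosomes. It lay above it on chromosomes 7 (20.4%) and 14, and below it on chromosomes 2 (14.2%), 4 and 11 (13.6%). These intervals cover counting error only, treat regions as independent and were not adjusted for 20 chromosomes, so they are no test. Chromosome 11 had the most common regions per Mb, at 6.62, and chromosome 14 the fewest of the autosomes, at 2.85. Snf2h-highest regions took 26.5% of the common regions of chromosome 11 and 23.8% of those of chromosome 14. On X, 33 of 241 common regions (13.7%) were Brg1-highest.

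**Figure D4:**
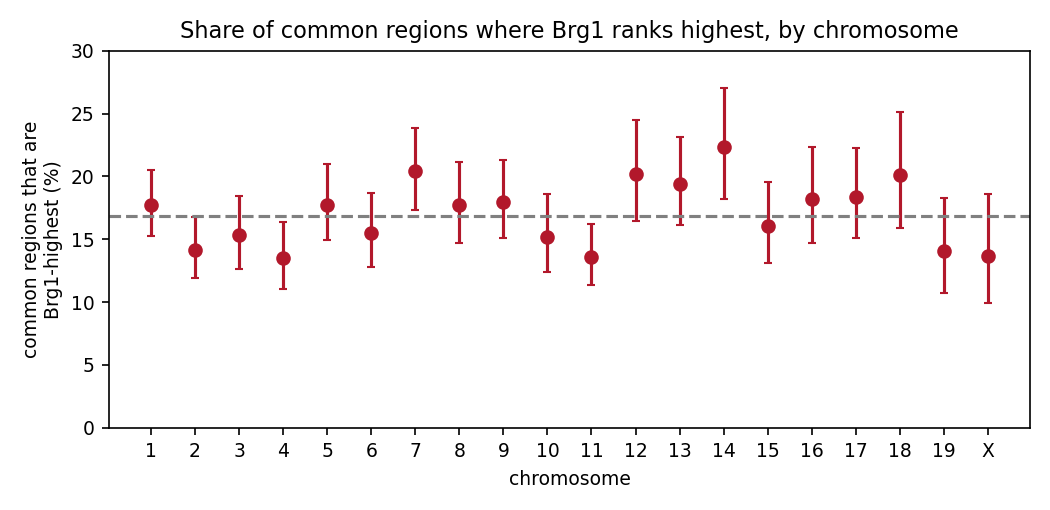
Share of common regions that were Brg1-highest (y axis, percent, points with 95% Wilson intervals for counting error) on each chromosome (x axis), with the share over all common regions as a dashed line at 16.8%. Chromosome 14 is highest at 22.3% and chromosome 4 lowest at 13.5%, and 15 of 20 intervals cross the line.

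Hotspots outside the common regions were not ranked by the rule, and were counted to ask whether Brg1-highest regions lie in Brg1-rich neighbourhoods. They come from the same 6 libraries whose heights chose the regions, so the reading is not independent of the choice. Hotspots were counted by their midpoints. Within 10 kb on each side, a Brg1-highest region had on average 1.31 and 3.19 Brg1 hotspots, against 1.26 and 3.08 around all common regions, ratios of 1.03 and 1.04. The ratios were 1.10 and 1.05 for the CHD4 libraries, from 0.641 and 3.72 hotspots against 0.585 and 3.54. For the Snf2h libraries they were 0.936 and 1.00, from 0.196 and 0.948 hotspots against 0.210 and 0.948. The mean ratio was 1.04 ± 0.00108 for Brg1 (SD, n = 2 libraries) and 1.02 ± 0.0687 for the others (SD, n = 4), a difference of 0.0144. This was smaller than the spread between the other libraries, and the exact permutation test over the 15 ways to choose 2 of 6 libraries gave a two-sided p of 0.8; the smallest p this design allows is 0.0667, so 0.05 could not be reached. The test could thus not decide whether Brg1 hotspots exceeded those of the other remodelers around these regions. As a description, both Brg1 ratios lay below both CHD4 ratios and above both Snf2h ratios. The difference kept its sign in 11 of 14 alternative settings, among them 0.0700 with lists of equal length and 0.0658 with the taller 50% of each list. It changed sign in 3: -0.00377 without Brg1 replicate 1, -0.00271 without Snf2h replicate 1 and -0.000794 with a flank of 50 kb. The closest flank showed fewer Snf2h hotspots in 1 library: within 2 kb, Snf2h replicate 1 had 69 hotspots around the 1756 regions, a ratio of 0.688 to all common regions, while Snf2h replicate 2 gave 0.946. Both CHD4 libraries were above 1 there, at 1.13 and 1.08. Between 50 and 100 kb all 6 ratios lay between 0.929 and 0.994. Within 10 kb of CHD4-highest regions there were 1.54 and 3.15 Brg1 hotspots, ratios of 1.22 and 1.02 to all common regions. Around Snf2h-highest regions the Brg1 ratios were 0.878 and 0.906. In Brg1 replicate 1 the ratio was thus higher around CHD4-highest than around Brg1-highest regions, and in Brg1 replicate 2 it was slightly lower.

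**Figure D5:**
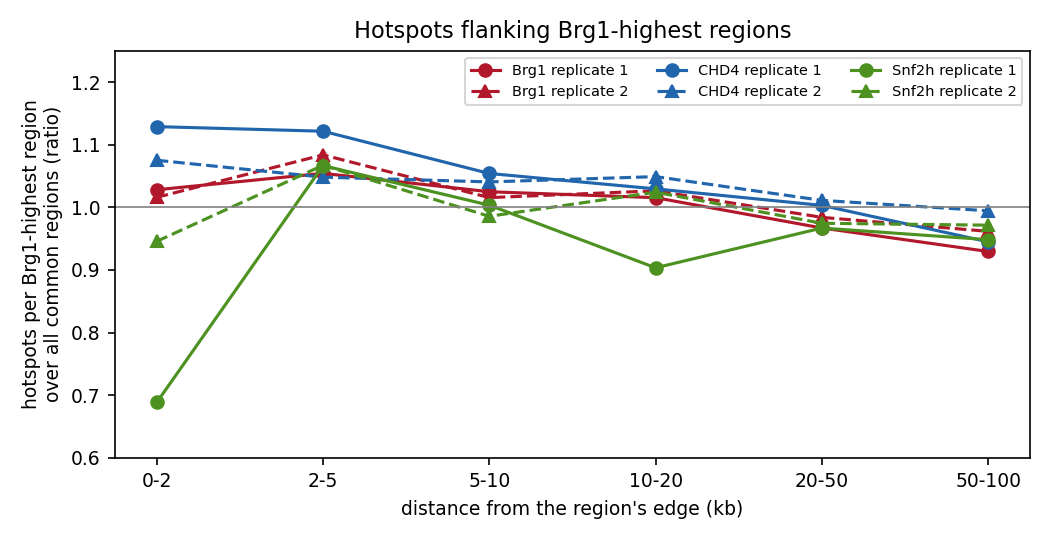
Mean number of hotspots per Brg1-highest region over the mean per common region (y axis, ratio) by distance from the region's edge (x axis, kb), for each library and counting only hotspots outside common regions. All points but the Snf2h replicate 1 value of 0.688 within 2 kb lie between 0.903 and 1.13, and the Brg1 lines run within the range of the other libraries except at 50 to 100 kb, where Brg1 replicate 1 is lowest at 0.929.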

How the data were processed

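The submitters' processing notes name CASAVA 1.6, without its role, and the mm9 build. The authors called hotspots per library; no source used here gives the caller, the thresholds or the use of inputs. Per the file headers, the deposited lists give maximum and average tag density (a signal of unstated scaling), a Z score and a p-value; the p-value was not used. The extraction text in the labels describes another assay, DNase I digestion.

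Intervals were read as closed and analysed with Python 3.11.15, numpy 2.4.6, pandas 2.3.3 and scipy 1.17.1, and drawn with matplotlib 3.10.9. Ranks used maximum density, with mean ranks for ties. Regions are not replicates, so the only kind of test, the flank permutation test, compared libraries. It was also run for the CHD4-highest and Snf2h-highest regions, with flanks of 5, 10 and 50 kb. For Snf2h-highest regions it gave a p of 0.0667, the smallest possible, at 5 and 10 kb and 0.133 at 50 kb. For CHD4-highest regions it gave 0.4 at each flank. The steps were run on simulated lists with planted regions. Unlike the deposited lists, these had similar lengths and almost no tied heights at common regions, so the run checked the code only. Regions named are the 8 of largest margin, the 5 of highest mean Brg1 percentile, the widest, the 2 nearest the edge of the rule on each side, and, chosen after their values were seen, the longest run. The members, rules and alternatives were chosen with earlier results of these data known. Gene lists, distance to transcription starts and motifs had been planned; they need an mm9 annotation or sequence, not used here.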

Additional observations from a re-analysis of the deposited data

How the results depend on the processing

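The number of Brg1-highest regions stayed within 1.5 times 1756 under every alternative except lists of equal length (32310 hotspots each), where 1123 of 6388 common regions qualified, and without Brg1 replicate 1 or Snf2h replicate 1. Leaving out each library in turn gave 2100 to 3631 regions, the highest without Snf2h replicate 1 and 3199 without Brg1 replicate 1. Fewer conditions then apply, more regions are common, and the ranks change with the set of common regions. The share of common regions that were Brg1-highest was then 18.5% to 26.2%. The share was 17.9% with the taller 50% of each list, 17.6% with lists of equal length, 17.8% at a common Z score of 9.49 and 18.9% ranked by average density. With a replicate block, comparing each Brg1 library with same-numbered lists only, 2214 regions (21.2%) qualified; no label says that numbers mark a shared batch, and the count comes from no test. Ranking by Z score kept 1470 of the 1756 regions and ranking by average density 1422. The taller 50% of each list kept 1127 (64.2%), lists of equal length 1102 (62.8%) and the common Z score 1223 (69.6%). The count alone thus does not show that the same regions qualified. The share of common regions lay outside the main interval of 16.1% to 17.5% in 11 alternatives and inside it in 4. The held share from replicate 1 to replicate 2 was 62.7% with the taller 50% (against 36.5% of all common regions), 61.5% with lists of equal length (37.5%), 60.5% at the common Z score (36.7%), 62.4% by average density (36.1%), and 46.8% to 70.5% when a CHD4 or Snf2h library was left out, where the share over all common regions itself ran from 34.5% to 49.9%; it exceeded the share over all common regions in all 10 alternatives run. It could not be computed without a Brg1 library. The flank difference of 0.0144 was 0.0700 with lists of equal length, 0.0658 with the taller 50% and 0.0604 at the common Z score, changed sign at 50 kb (-0.000794), and without single libraries ran from -0.00377 to 0.0490, with p from 0.133 to 1 over its 14 alternatives; the cause was not tested. With a library left out fewer splits were possible, so the smallest p that the flank test allowed was larger. Depth is unknown, and the 140 distinct heights in Snf2h replicate 1 limit its ranks.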
